A study of Mus musculus with 6 samples.

Results

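The enzymes that finish the digestion of peptides and sugars on the surface of the small intestine were followed in single-cell RNA sequencing of mouse ileal crypts. The 9 genes were chosen by name: 6 peptidases (Mep1a, Mep1b, Anpep, Dpp4, Lvrn and Naaladl1) and 3 disaccharidases (Sis, Lct and Treh), of 32285 genes counted. All 9 were listed in the files. Epithelial cells had been sorted by the surface protein EpCAM and captured as droplets. There were 3 libraries of Fpr2f/f mice, in which the gene for formyl peptide receptor 2 carried recombination sites and no Cre was present (labelled WT), and 3 libraries of Fpr2VKO mice, in which Cre under the Villin promoter was meant to delete Fpr2 in intestinal epithelial cells. Villin drives Cre in the whole intestinal epithelium and not in one cell type. The mice were on the C57BL/6J background and were otherwise untreated. The labels give no age. The study gives an age range for the mice of all its experiments, not reported here, and states matching for sex and age.

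Brush border enzymes are anchored in the apical membrane of enterocytes, the absorptive cells that line the villi, where they cut peptides and disaccharides to units that the neighbouring transporters can take up. Enterocytes arise from stem cells in the crypt through dividing transit-amplifying (TA) cells, and they switch these genes on as they mature towards the villus. A crypt preparation is therefore poor in the cells best known for these enzymes.

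Among the peptidases, Mep1a and Mep1b encode the subunits of meprin, a secreted and membrane-bound metalloproteinase; Anpep encodes aminopeptidase N, which removes single residues from the amino end of peptides; Dpp4 encodes dipeptidyl peptidase 4, which removes dipeptides and also inactivates the hormone GLP-1. Lvrn encodes laeverin, a further aminopeptidase best known from placenta, and Naaladl1 encodes a relative of glutamate carboxypeptidase. Of the disaccharidases, Sis encodes sucrase-isomaltase, Lct lactase, the milk sugar enzyme that declines after weaning, and Treh trehalase. Of the genes, 7 lie in GRCm38 at chr17:43474324-43502812 (Mep1a), chr7:79821803-79861059 (Anpep), chr2:62330073-62412231 (Dpp4), chr19:6105782-6115792 (Naaladl1), chr3:72888557-72967863 (Sis), chr1:128284756-128328318 (Lct) and chr9:44673233-44686305 (Treh). Dpp4 overlaps the antisense gene Gm13561 and Treh overlaps Phldb1 on the other strand. Whether the counting used strand is not given in the sources used here, so reads of these pairs may not be told apart.

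Promoters are shown for the 3 disaccharidases, Sis, Lct and Treh, and for Dpp4, a peptidase with signal in many classes, so that their sequence can be read beside the levels. RefSeq promoter records (GRCm38.p6) matched 6 of the 9 genes. The 250 bases before each start site were searched on both strands for the HNF1 core GTTAAT, the CDX motif TTTATNG, the HNF4 motif CAAAGTNCA and the GATA motif AGATAA, which stand for factors known from enterocyte genes, and matches are in capitals.
Sis (chr3:72967864-72968113, minus strand): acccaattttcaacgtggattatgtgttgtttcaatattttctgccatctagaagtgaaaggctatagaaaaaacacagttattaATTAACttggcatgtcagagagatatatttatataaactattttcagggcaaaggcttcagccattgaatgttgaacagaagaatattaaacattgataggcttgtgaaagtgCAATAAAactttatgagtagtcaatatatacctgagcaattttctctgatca
Lct (chr1:128328319-128328568, minus strand): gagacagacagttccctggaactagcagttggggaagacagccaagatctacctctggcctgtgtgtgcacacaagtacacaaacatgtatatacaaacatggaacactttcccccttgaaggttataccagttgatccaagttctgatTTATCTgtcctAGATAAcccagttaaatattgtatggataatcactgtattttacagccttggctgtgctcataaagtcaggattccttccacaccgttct
Dpp4 (chr2:62412232-62412481, minus strand): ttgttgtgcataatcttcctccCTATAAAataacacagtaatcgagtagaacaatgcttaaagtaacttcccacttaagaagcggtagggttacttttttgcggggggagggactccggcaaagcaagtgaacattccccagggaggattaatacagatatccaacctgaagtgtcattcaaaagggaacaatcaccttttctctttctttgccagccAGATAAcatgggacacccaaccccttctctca
Treh (chr9:44672983-44673232, plus strand): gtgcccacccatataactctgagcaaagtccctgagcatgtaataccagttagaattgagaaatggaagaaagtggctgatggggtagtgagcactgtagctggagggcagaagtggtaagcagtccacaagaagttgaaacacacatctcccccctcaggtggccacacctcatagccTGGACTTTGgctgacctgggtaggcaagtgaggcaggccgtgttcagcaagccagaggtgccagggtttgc
In Sis the HNF1 core began 165 and the CDX motif 52 bases before the start. Lct held a pair of GATA motifs in opposite orientation that began 101 and 90 bases before it, Dpp4 a CDX and a GATA motif at 228 and 32 bases, and Treh an HNF4 motif at 71 bases. Over all 32851 promoters cut to this length, 6.43% held the HNF1 core, 9.81% the CDX motif, 1.19% the HNF4 motif and 9.99% the GATA motif, on either strand. None of the 4 motifs stood in the same window of Anpep or Mep1a. The Anpep window, chr7:79848211-79848460, lay within the gene span given above and not at its outer end. A match is a description of letters and not of binding.

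The libraries held 90142126 to 189516114 UMIs (unique molecular identifiers, each marking 1 captured transcript molecule). Fpr2, the gene the mice were made to lack, had 0 UMIs over all barcodes of every library, which allows up to 3 UMIs per library, so the labels could not be checked on it. After filters and removal of doublets, 16676 cells were left, and 16360 of them were epithelial. The limit on mitochondrial UMIs took away 65.7% to 78.0% of the barcodes with enough UMIs and genes in the Fpr2f/f libraries, against 76.1% to 90.1% in the Fpr2VKO ones. Pairs of libraries shared 0 to 23 barcodes, where independent draws would give 1.79 to 5.68, and some pairs were below their number and some above. The most were shared by Fpr2f/f replicate 2 and Fpr2VKO replicate 1, 23 where such draws give 4.54. The source of the sharing was not tested. Depth differed by genotype. Before doublets were removed, the median kept barcode of Fpr2f/f mice had a depth of 3033, 4602 and 4612 by library. For Fpr2VKO mice this median was 6358, 6728.5 and 6686.5, without overlap. Except for shares taken at equal depth, the part of this split in the genotype comparisons was not tested. Clusters were built without the 9 enzymes and without the other brush border hydrolases and transporters, and named from marker lists. Enterocyte-like cells were 994 cells in 2 clusters, and their enterocyte markers (7 of 7 detected) summed to 6614 to 13087 CPM (the UMIs of a gene over all UMIs of a class in a library, times 1000000), against 887 to 1306 in goblet-like cells. In these cells up to 5 of 8 immune markers and up to 5 of 6 stromal markers were at 0 in a library. The largest group, 8652 cells in 8 clusters, met the marker rule of no class and stayed unnamed. Enterocyte markers, which also named the enterocyte-like class, summed there to 1260 to 2208 CPM in the Fpr2f/f libraries. Levels are in CPM, and a mean is over libraries with at least 20 cells of the class. Because a level is a share, fewer molecules of an enzyme per cell cannot be told apart from more molecules of other genes.

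Of the 9 enzymes, 8 had their highest level in enterocyte-like cells, in all 6 libraries above the level in free RNA (barcodes under 100 UMIs). Lvrn did not. The next lower class in the order of means was the unnamed cells for 7 of these 8, without overlap of the libraries' ranges. For Dpp4 it was the enteroendocrine-like cells, with overlap. The unnamed class was mixed, and the gap holds for it as a whole. For Mep1a, the unnamed cluster led by Fabp6, described below, had a higher mean than the enterocyte-like class. Enterocyte-like cells made up 13.5% ± 3.12 (mean ± SD over libraries, n = 6) of the epithelial UMIs but held 75.6% ± 8.77 of the Lct UMIs, 66.5% ± 6.52 of Mep1b, 64.2% ± 6.76 of Sis, 61.9% ± 7.70 of Mep1a, 57.1% ± 10.6 of Anpep, 53.3% ± 8.65 of Naaladl1 and 51.1% ± 13.2 of Treh. For Dpp4 the share was 34.2% ± 6.84 and for Lvrn 3.52% ± 3.11.

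**Figure D1:**
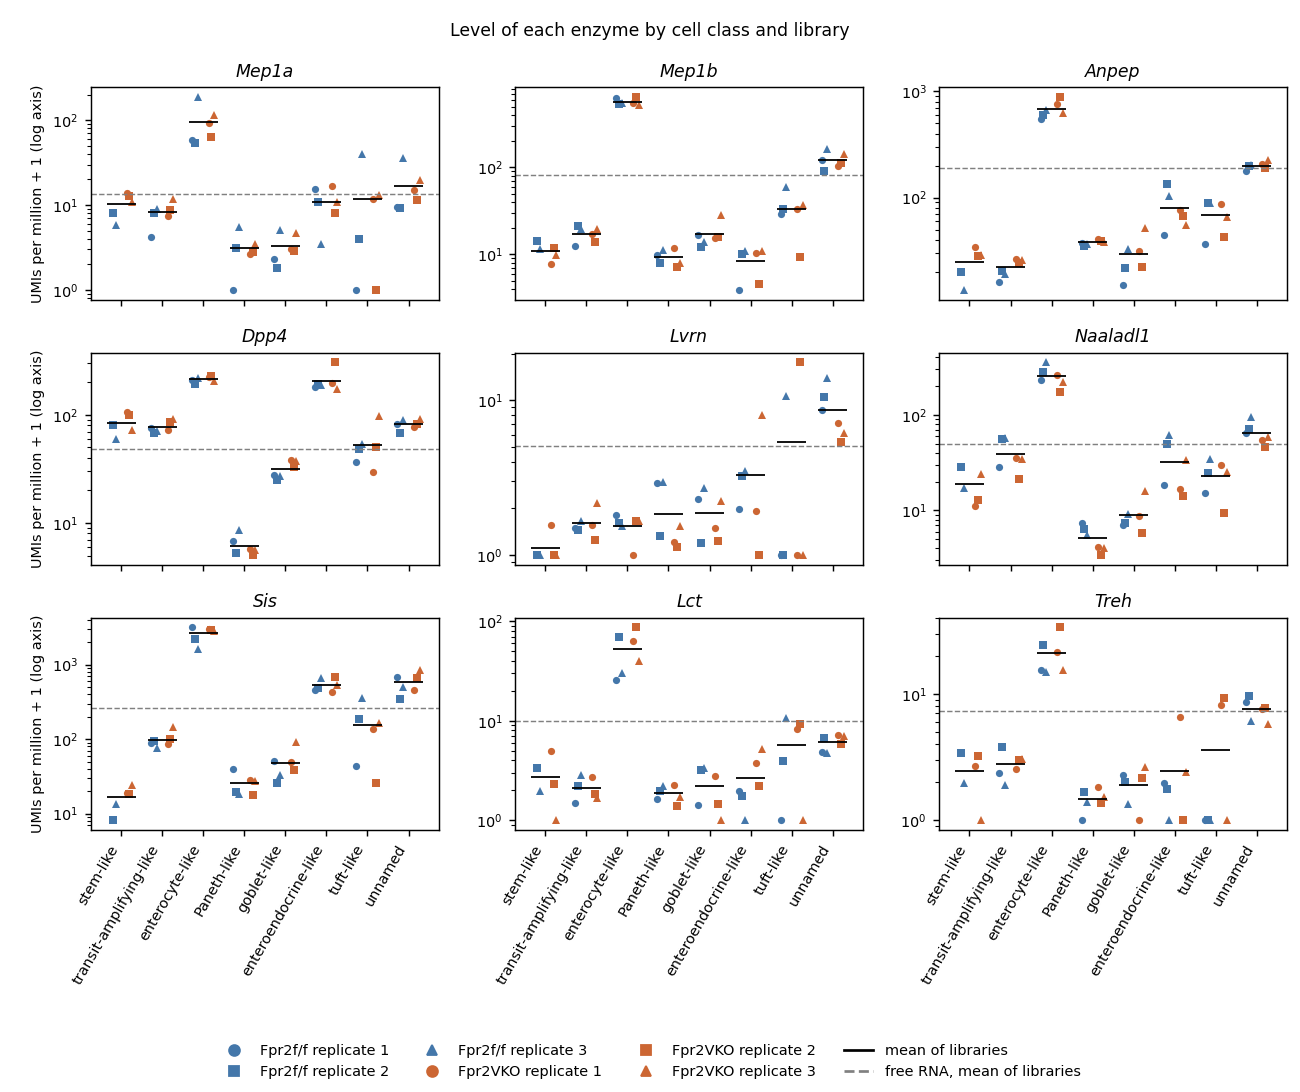
Level of each enzyme in 8 cell classes, as CPM plus 1 on a log axis. Each point is 1 library with at least 20 cells of the class (blue, Fpr2f/f; orange, Fpr2VKO), black bars are means and the dashed line is the mean level in free RNA. Enterocyte-like cells stand highest for 8 of 9 enzymes, and Lvrn is the exception.

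Meprin is known as dimers and larger assemblies of an alpha and a beta subunit. Mep1a, the alpha subunit, stood at 57.5, 52.3 and 186 CPM in enterocyte-like cells of Fpr2f/f replicates 1 to 3 and at 90.3, 62.4 and 114 CPM in Fpr2VKO replicates 1 to 3. Fpr2f/f replicate 3 was the highest of the 6, and the groups overlapped. Mep1b, the beta subunit, varied far less, with 628, 540 and 545 CPM against 549, 644 and 517 CPM. In stem-like cells Mep1a was at 9.32 ± 3.34 CPM (SD, n = 5) and in TA-like cells at 7.23 ± 2.50 CPM (n = 6), below free RNA (12.3 CPM) in all 6 libraries for the latter. The mean level of Mep1b over these classes, 10.03 ± 2.41 and 16.3 ± 3.51 CPM, was likewise below free RNA (80.2 CPM).

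Anpep, the aminopeptidase that also serves as a receptor for some coronaviruses, stood at 544, 596 and 672 CPM in Fpr2f/f and 763, 886 and 628 CPM in Fpr2VKO enterocyte-like cells. Its level in enteroendocrine-like cells was 79.3 ± 33.7 CPM (n = 6), in Paneth-like cells 36.7 ± 2.11 and in goblet-like cells 28.1 ± 13.0 CPM, each below free RNA (189 CPM) in every library. Naaladl1 stood at 233, 283 and 355 CPM against 262, 172 and 221 CPM. TA-like cells, at 37.8 ± 14.8 CPM, and Paneth-like cells, at 4.16 ± 1.55 CPM, were below free RNA (49.0 CPM) by the mean.

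Dpp4 was less bound to enterocyte-like cells than the other enzymes except Lvrn. It stood at 210, 193 and 220 CPM in Fpr2f/f and 224, 228 and 205 CPM in Fpr2VKO enterocyte-like cells, and at 182, 191 and 186 CPM and 196, 306 and 174 CPM in enteroendocrine-like cells, the hormone-producing cells of the epithelium. The ranges of these classes overlapped and the ratio of their means was 1.04. Stem-like cells (82.6 ± 19.2 CPM, n = 5) and TA-like cells (76.4 ± 9.47 CPM, n = 6) were above free RNA (47.1 CPM) in every library, and their ranges overlapped too. Paneth-like cells were lowest, at 5.19 ± 1.30 CPM, without overlap with any other class. TA-like cells, more numerous, held 27.7% ± 6.25 of the epithelial Dpp4 UMIs and 30.4% ± 6.48 of all epithelial UMIs. With each cell thinned to 1000 UMIs, 21.7% ± 8.74 of enteroendocrine-like and 16.6% ± 3.13 of enterocyte-like cells had a Dpp4 UMI. In Paneth-like cells, the class with the lowest level, the share was 1.29% ± 0.919. Without thinning the shares were 71.7% ± 8.70, 89.0% ± 3.70 and 14.9% ± 4.12, with median depths per library of 7766 to 16926, 21670 to 39789 and 7103 to 44355 UMIs.

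Lvrn went against the others. Enterocyte-like cells held 2, 3 and 3 UMIs in the Fpr2f/f libraries, against 0, 4 and 3 UMIs in the Fpr2VKO ones, a mean of 0.541 ± 0.280 CPM, below free RNA (4.10 CPM) in all 6. No thinned enterocyte-like cell had a UMI. The unnamed cells, at 7.63 ± 3.17 CPM, were above free RNA in 6 of 6 libraries and held 76.8% ± 13.2 of the epithelial Lvrn UMIs. Within them the signal lay in a cluster led by Celf2, Tex14 and histone genes (42.1, 15.4 and 51.6 CPM in Fpr2f/f, 19.1, 35.0 and 32.0 CPM in Fpr2VKO), in a cluster led by Areg and Edn1 (29.6, 20.6 and 28.8 CPM against 19.5, 25.2 and 14.9 CPM) and, lower, in a cluster led by histone genes (8.46, 6.15 and 21.8 CPM against 4.07, 7.13 and 10.7 CPM). These values rest on 3 to 80 Lvrn UMIs per library and cluster. The clusters were shallow, with medians of 4265, 2676 and 4472.5 UMIs per cell in the order given. The part of depth or RNA quality in the Lvrn level was not tested.

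**Figure D2:**
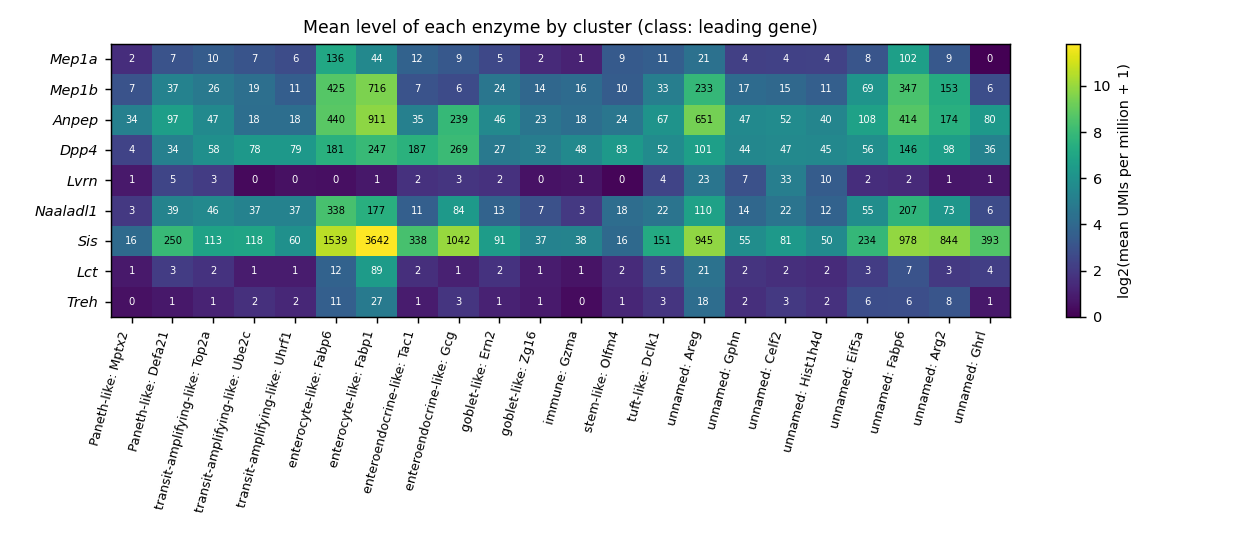
Mean level of each enzyme by cluster, over the libraries with at least 20 cells of the cluster. Numbers are CPM, colour is log2 of the mean plus 1, columns give the class and the gene that leads the cluster, and values are to be read along a row. Sis reaches 3642 in the Fabp1-led cluster, and the highest Lvrn value, 32.5, is in the unnamed cluster led by Celf2.

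Sis, which splits sucrose and the branch points of starch, stood at 3159, 2192 and 1599 CPM in Fpr2f/f and 2986, 2958 and 2848 CPM in Fpr2VKO enterocyte-like cells. Fpr2f/f replicate 3 was the lowest. Enteroendocrine-like cells had 540 ± 110 CPM (n = 6), above free RNA (258 CPM) in 6 of 6 libraries, and the Gcg-led cluster of them 939, 1097 and 1090 CPM in the 3 libraries with at least 20 of its cells. Enterocyte markers in enteroendocrine-like cells summed to 302 to 710 CPM, and their part in this value was not tested. Thinned to 1000 UMIs, 76.3% ± 7.11 of enterocyte-like, 30.04% ± 4.39 of enteroendocrine-like and 7.49% ± 3.40 of Paneth-like cells had a Sis UMI (98.4%, 68.7% and 45.4% without thinning, at the depths above).

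Sis stood higher at each step of the lineage, from 15.6 ± 6.04 CPM (n = 5) in stem-like to 97.6 ± 25.2 CPM (n = 6) in TA-like and 2624 ± 603 CPM in enterocyte-like cells, without overlap between the libraries of any of these classes, although stem-like and TA-like cells were below free RNA. An unnamed cluster led by Arg2 and Aadac lay between, at 844 CPM. Lct stood at 24.9, 67.9 and 29.4 CPM against 62.8, 85.7 and 38.7 CPM in enterocyte-like cells, and in the named other classes except tuft-like cells its mean was at most 1.72 CPM. Treh stood at 14.5, 23.5 and 13.8 CPM against 20.5, 32.6 and 14.5 CPM.

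The 2 enterocyte-like clusters divided the enzymes. One was led by Fabp6, the ileal bile acid binding protein, with the bile acid transporter gene Slc51b (533 cells), and the other by Fabp1, the liver-type fatty acid binding protein, with the retinol binding protein gene Rbp2 and Apoa1 (461 cells). A further cluster led by Fabp6 (744 cells, median 4132 UMIs) met the marker rule of no class and was counted with the unnamed cells. It had Mep1a at 102 ± 32.8, Naaladl1 at 207 ± 55.2 and Sis at 978 ± 289 CPM (n = 6). Its mean Mep1a was above that of the enterocyte-like class (93.8 ± 51.0 CPM). Its mean Naaladl1 was above that of the Fabp1-led cluster (177 ± 48.0 CPM). Between the 2 enterocyte-like clusters, Mep1a and Naaladl1 were higher in the Fabp6-led one in 6 of 6 libraries, by 1.49 ± 0.54 and 0.96 ± 0.22 on the log2 scale of CPM plus 1 (mean ± SD, n = 6). Sis, Anpep, Mep1b, Dpp4, Lct and Treh were higher in the Fabp1-led cluster in 6 of 6. Their log2 differences, Fabp6-led minus Fabp1-led, were -1.29 ± 0.33 for Sis, -1.05 ± 0.29 for Anpep, -0.75 ± 0.17 for Mep1b, -0.45 ± 0.21 for Dpp4, -2.78 ± 1.10 for Lct and -1.21 ± 0.41 for Treh. So the subunits of meprin lay in opposite order in these clusters: Mep1a averaged 136 ± 61.5 CPM in the Fabp6-led and 44.3 ± 10.2 CPM in the Fabp1-led cluster, and Mep1b 425 ± 39.1 and 716 ± 90.0 CPM. These are clusters of the same cells, so the differences are given as description, without a test.

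**Figure D3:**
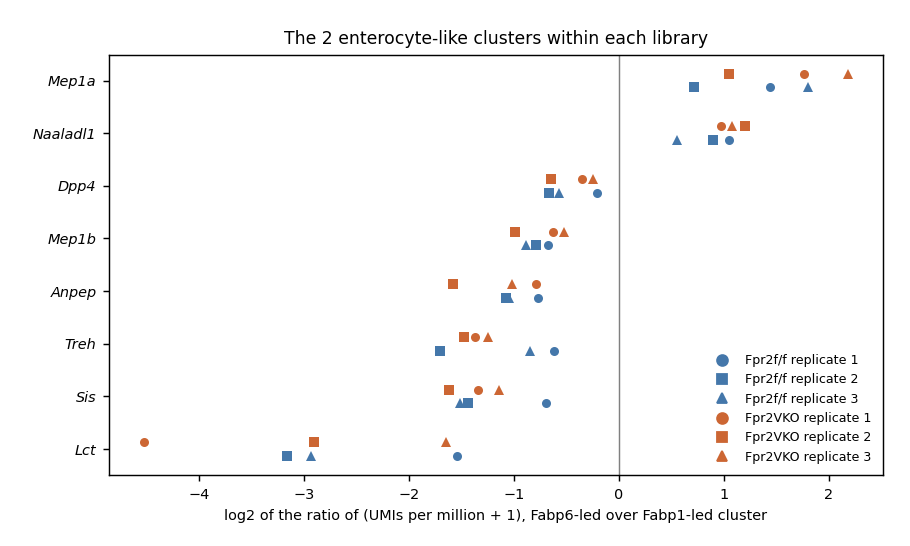
Log2 of the ratio of (CPM + 1) between the Fabp6-led and the Fabp1-led enterocyte-like cluster in each of the 6 libraries. Points right of 0 are higher in the Fabp6-led cluster: all 6 for Mep1a and Naaladl1, and none for the other 6 enzymes shown.

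Without thinning, at medians of 25406 and 31339 UMIs per cell, the median cell had UMIs of 5 to 6 of the 9 enzymes in the Fabp6-led and of 6 to 7 in the Fabp1-led enterocyte-like cluster, by library. The clusters differed in depth, and the part of depth in these numbers was not tested. Across 47 sums of a class in a library, the log2 levels of pairs among the 8 enzymes other than Lvrn went together with Pearson r from 0.43 to 0.87. The highest values were those of Anpep with Sis (0.87) and with Mep1b (0.86) and of Lct with Treh (0.84), and the lowest those of Dpp4 with Mep1b (0.43), Lct (0.45), Treh (0.47) and Anpep (0.49). Lvrn had r of 0.05 to 0.28 with the other 8. Among 6331 other genes with at least 20 CPM, the 2 whose pattern was most like that of each enzyme were Slc5a1 and Ppargc1a for Mep1a, Slc9a3 and Slc51b for Mep1b, Apoa1 and Slc9a3 for Anpep, Me2 and Dpyd for Dpp4, Slc5a1 and Prxl2b for Naaladl1, Rbp2 and Slc27a4 for Sis, Apoa4 and Apoa1 for Lct, and Creb3l3 and Abcc2 for Treh, with r from 0.86 to 0.96. For Lvrn they were Tex14 and Hist1h4c, at 0.64 and 0.63. These points share libraries, depth and classes, and no p is given.

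The study asked what loss of Fpr2 does to the cells of the crypt, and UMIs summed per library were compared between Fpr2VKO and Fpr2f/f mice. No enzyme passed an adjusted p of 0.05 (edgeR quasi-likelihood test, Benjamini-Hochberg over all genes). Over all epithelial cells 0 of 9 were called, where 0.0182% of 16523 genes were, and in enterocyte-like cells 0 of 8, where 0.00945% of 10578 genes were; Lvrn had too few UMIs there. DESeq2 called 1 (Lvrn) and 0, where it called 0.596% and 0.143% of all genes. At an unadjusted p under 0.05 stood 2 of 9 (Lvrn and Sis, against 9.01% of all genes) and 2 of 8 (Anpep and Naaladl1, against 5.97%). The median log2 fold change was 0.16 over the 9 and 0.21 over the 8.

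Lvrn stood at 2.76, 3.40 and 4.37 CPM in Fpr2f/f and 1.69, 1.11 and 1.80 CPM in Fpr2VKO epithelial cells, and it was the only enzyme whose groups did not overlap (13.6% of genes did not). The log2 fold change was -1.18 ± 0.25 (SE, adjusted p = 0.207 by edgeR), from 70, 164 and 138 against 63, 46 and 54 UMIs. DESeq2 called it (adjusted p = 0.0102), as did edgeR without a low-count filter (0.00197) and without Fpr2f/f replicate 1 (0.0325). Over its alternatives the adjusted p ran from 0.00197 to 0.613. The share of unnamed cells, which held most of its UMIs, was 54.6%, 65.7% and 54.1% of epithelial cells in the Fpr2f/f libraries, against 48.2%, 41.3% and 39.4% in the Fpr2VKO ones. Within the unnamed cells the log2 fold change was -0.95 ± 0.25 (adjusted p = 0.704). The part of the unnamed share was not tested further. In barcodes with 20% to 40% mitochondrial UMIs, outside the cells kept, the groups overlapped for Lvrn. It stood there at 7.05, 5.43 and 11.0 CPM in Fpr2f/f and 5.48, 3.91 and 6.83 CPM in Fpr2VKO.

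**Figure D4:**
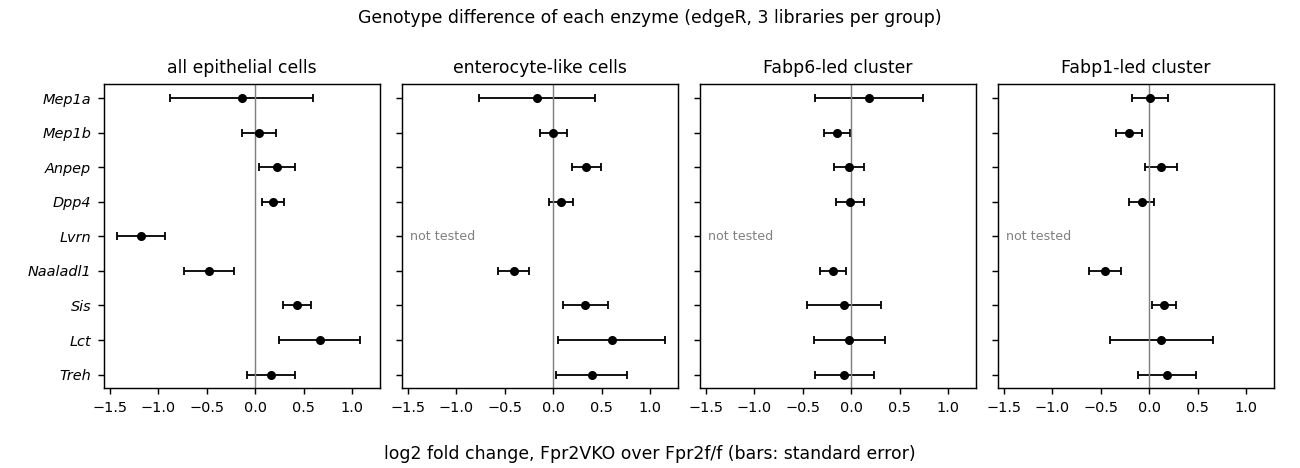
Log2 fold change of each enzyme, Fpr2VKO over Fpr2f/f, with bars of 1 standard error, from edgeR on sums of 3 libraries per group over all epithelial cells, over enterocyte-like cells and over each of the 2 enterocyte-like clusters. No value passed an adjusted p of 0.05. Lvrn, at -1.18 over all epithelial cells, was not tested in the other 3.

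Sis stood at 566, 380 and 457 CPM against 543, 611 and 667 CPM over all epithelial cells, a log2 fold change of 0.43 ± 0.14 (adjusted p = 0.430), and Lct at 3.86, 9.56 and 7.21 against 10.8, 14.0 and 7.52 CPM (0.66 ± 0.42, adjusted p = 0.684). Naaladl1 had the opposite sign, at 54.3, 67.8 and 106 against 59.7, 41.7 and 59.1 CPM (-0.48 ± 0.26, adjusted p = 0.627). In enterocyte-like cells the values were 0.33 ± 0.24 for Sis, 0.60 ± 0.55 for Lct, 0.34 ± 0.15 for Anpep (adjusted p = 0.801) and -0.41 ± 0.16 for Naaladl1 (adjusted p = 0.774). For Mep1a the sign did not hold: the log2 fold change was -0.14 ± 0.73 over all epithelial cells and -0.17 ± 0.60 in enterocyte-like cells, and 0.96 and 0.66 without Fpr2f/f replicate 3, where its level was highest, and 0.0077 and 0.017 without Fpr2VKO replicate 2, again not called. With the replicate number as a block it was 0.19 and 0.011. The sign of Sis over all epithelial cells turned at a limit of 10% mitochondrial UMIs (-0.21). In enterocyte-like cells the sign of Anpep turned at 40% mitochondrial UMIs (-0.24), at a minimum of 2000 UMIs (-0.23) and at Leiden resolution 2 (-0.087), and that of Lct at the first of these (-0.015) and the second (-0.058).

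The weight of the clusters was compared between the groups as well. The Fabp1-led cluster held 2.23%, 1.52% and 1.40% of epithelial cells in the Fpr2f/f libraries, against 3.27%, 5.56% and 4.46% in the Fpr2VKO ones, without overlap, and its mean share was 1.72% ± 0.452 against 4.43% ± 1.14 (SD, n = 3 each, exact two-sided permutation p = 0.1, the smallest that 3 against 3 allows). Such a lack of overlap was not particular to this cluster. The unnamed clusters led by Areg (median 2676 UMIs per cell) and by Gphn (2981) were lower in Fpr2VKO without overlap. The goblet-like cluster led by Zg16 (22631) and the stem-like cluster (21768) were higher without overlap. The Fabp1-led cluster had a median of 31339 UMIs, and the part of depth in these shares was not tested. The share of the Fabp6-led enterocyte-like cluster was 3.37% ± 2.14 and 3.63% ± 1.35 (exact permutation p = 0.8), and that of all enterocyte-like cells 5.08% ± 1.96 and 8.05% ± 1.73 (exact permutation p = 0.2). The last difference, 2.97 points, turned to -3.18 points at a limit of 10% mitochondrial UMIs and was 0.503 points at 40%. Cells were clustered and named anew at both limits. The unnamed cluster led by Fabp6 held 2.47%, 2.83% and 9.49% of epithelial cells against 5.42%, 3.55% and 4.74%, with overlap. Of the enterocyte-like cells, 52.5%, 54.7% and 80.6% lay in the Fabp6-led cluster in the Fpr2f/f libraries, against 47.4%, 33.2% and 53.7% in the Fpr2VKO ones. Tested within the clusters one by one, a step added after the values were seen, none of the 8 enzymes was called by edgeR or DESeq2, where edgeR called 0.0107% of genes in the Fabp6-led and 0.0436% in the Fabp1-led cluster, and DESeq2 0.00489% and 0.0194%. At an unadjusted p under 0.05 stood 0 of 8 in the former (4.23% of genes) and 1, Naaladl1, in the latter (5.48%). The log2 fold changes of Sis there were -0.074 ± 0.38 and 0.15 ± 0.12, those of Lct -0.017 ± 0.37 and 0.13 ± 0.53, those of Anpep -0.025 ± 0.16 and 0.12 ± 0.16, and those of Naaladl1 -0.19 ± 0.13 and -0.46 ± 0.17.

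At equal depth the share of enterocyte-like cells with a UMI overlapped between the groups for the 8 enzymes detected. It was 73.0% ± 9.64 against 79.5% ± 1.36 for Sis, 39.9% ± 2.79 against 47.4% ± 5.47 for Anpep and 26.0% ± 2.43 against 18.8% ± 6.13 for Naaladl1 (SD, n = 3 each), with unadjusted exact permutation p of 0.3, 0.3 and 0.2 among the 8 compared. In the other classes no enzyme was called either: 0 of 6 tested in stem-like, 0 of 8 in TA-like, 0 of 6 in Paneth-like, 0 of 5 in goblet-like, 0 of 4 in enteroendocrine-like, 0 of 3 in tuft-like and 0 of 9 in unnamed cells, where 0.0228%, 0.15%, 0.23%, 0.467%, 0.011%, 0.0286% and 0.00766% of all genes were, in that order. At an unadjusted p under 0.05 stood 3 (Anpep, Sis and Dpp4), 2 (Anpep and Sis), 1 (Naaladl1), 1 (Dpp4), 0, 0 and 2 (Lvrn and Naaladl1) of them, against 6.14%, 7.05%, 8.54%, 11.4%, 3.67%, 5.73% and 6.76% of all genes. DESeq2 called none of the enzymes in these classes, where it called 0.164%, 0.324%, 0.131%, 2.63%, 0.00996%, 0.0124% and 0.0895% of all genes, but it gave an adjusted p to only 1 enzyme in stem-like, 3 in Paneth-like and 0 in goblet-like cells. The smallest unadjusted p outside the epithelial sum was for Anpep in TA-like cells, 15.2, 19.5 and 18.1 against 25.6, 23.2 and 24.6 CPM, a log2 fold change of 0.48 ± 0.14 (edgeR adjusted p = 0.209). These levels were below free RNA (mean 189 CPM) in all 6 libraries, and free RNA was not subtracted. Stem markers in the TA-like cells summed to 1916 to 2248 CPM in the Fpr2f/f libraries, against 3661 to 4456 CPM in the Fpr2VKO ones. Enterocyte markers there summed to 651 to 796 against 835 to 899 CPM, also without overlap. The part of either marker set in the Anpep value was not tested. Sis and Anpep in stem-like cells had log2 fold changes of 0.94 ± 0.39 and 0.93 ± 0.33 (adjusted p = 0.741 and 0.678), with 2 libraries against 3, since Fpr2f/f replicate 1 had only 16 such cells. Both enzymes were below free RNA there in each of these libraries. Enterocyte markers in these stem-like cells summed to 390 and 423 against 519 to 566 CPM, and their part was not tested.

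The genes that work beside the 9 were followed as 4 lists chosen with earlier results of these data known. Of the other brush border hydrolases, 0 of 11 tested in enterocyte-like cells were called (median log2 fold change 0.17). They were led by Mgam, maltase-glucoamylase, at 984 ± 71.9 CPM, and Enpep, glutamyl aminopeptidase, at 726 ± 40.7 CPM (n = 6). Of the peptide, amino acid and sugar transporters 0 of 11 were called (0.26), with Slc5a1, the sodium-glucose cotransporter, at 356 ± 47.6 CPM and the amino acid transporter genes Slc7a9 at 162 ± 20.6 and Slc6a20a at 153 ± 42.4 CPM. Of the intracellular peptidases, which finish peptides inside the cell, 0 of 7 were called (-0.12), with Npepps at 257 ± 25.2, Cndp2 at 202 ± 24.0 and Lap3 at 188 ± 22.3 CPM. Of the enterocyte transcription factors 0 of 15 were called (-0.0027), with Klf5 at 867 ± 157, Hnf4g at 349 ± 41.2 and Hnf4a at 228 ± 34.2 CPM. Over all epithelial cells 0 of 12, 0 of 11, 0 of 7 and 0 of 15 were called. At an unadjusted p under 0.05 stood 1, 1, 0 and 1 genes in enterocyte-like cells and 2, 2, 0 and 1 over all epithelial cells, where 5.97% and 9.01% of all genes did. DESeq2, which called 0.143% and 0.596% of all genes there, called none of them in enterocyte-like cells and 1 over all epithelial cells, Slc2a2, the facilitative glucose transporter, named here after its values were seen. It stood at 3.04, 3.54 and 3.10 CPM in Fpr2f/f and 6.35, 12.2 and 6.18 CPM in Fpr2VKO epithelial cells, without overlap, and its log2 fold change was 1.40 ± 0.30 by edgeR (adjusted p = 0.241) and 1.44 ± 0.27 by DESeq2 (adjusted p = 0.000149). The median over all genes tested was -0.0027 in enterocyte-like and -0.0057 in all epithelial cells.

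The UMIs of the enzymes lay in part outside the cells kept. Kept barcodes held 38.7% of the Mep1a, 36.4% of the Sis and 35.7% of the Dpp4 UMIs, but 21.0% of the Anpep, 22.3% of the Lct, 22.6% of the Treh and 15.2% of the Lvrn UMIs, where they held 29.5% of the UMIs of all genes. In barcodes with 20% to 40% mitochondrial UMIs, Anpep was at 240 ± 34.5 CPM, against 157 ± 27.1 CPM in kept barcodes, and higher in 6 of 6 libraries (n = 6). Lvrn and Treh were higher there in 6 of 6 libraries as well, and Lct in 5 of 6.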

How the data were processed

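Droplet-based single-cell RNA sequencing of EpCAM-sorted mouse ileal crypt cells was measured in 6 libraries on the MobiNova-100 platform. The authors aligned reads to mm10 and counted with MobiVision; the deposited values were raw UMI counts per gene and barcode, for 32285 genes and 2359296 barcodes per library, so no cells had been called. Annotation version, strand setting and the cutoffs of the cell filter are not given in the sources used here; the study later removed poor cells by UMI and doublets by DoubletFinder, steps that these matrices precede. The submitters' processing notes list Seurat 4.0.0, used after these files.

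Barcodes with at least 1000 UMIs, 500 genes and at most 20% mitochondrial UMIs were kept, and doublets (scored by artificial neighbours, 0.8% per 1000 cells) were removed. Free RNA was not subtracted. Counts were log-normalized, 30 principal components of 2000 variable genes, without the enzymes and related lists, were aligned by mutual nearest neighbours, and clusters were found with Leiden at resolution 1 (leidenalg 0.10.2, Python 3.11.15). A cluster took a class name when its markers had a mean log2 fold of at least 0.5, with at least 3 markers higher and found in 10% of cells, and at least 1 among its 10 leading genes. Epithelial sums excluded an immune-like cluster and a small one with Ptprc in at least 20% of its cells.

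Sums of UMIs were made for each class in each library, with the library as replicate, and tested with edgeR 4.0.16 (R 4.3.3, quasi-likelihood, TMM, filterByExpr, robust), with Benjamini-Hochberg adjustment over all genes; the SE is the fold change over the root of the test statistic. The study's own test took cells as replicates and was not used. In simulated counts 100 genes were changed 2-fold and 100 were changed 4-fold, drawn from all genes tested. The step recovered 75% of 2-fold and 91% of 4-fold changes over all epithelial cells (16523 genes). In enterocyte-like cells (10578 genes) it recovered 77% and 96%. Of 173 and 182 calls, 7 and 9 were false. The data gave 3 and 1 calls, so the adjusted threshold was stricter there than in the simulation. Recovery of low-count genes alone was not measured. Shares were compared by exact two-sided permutation, which with 3 against 3 cannot go below 0.1. The study gives 3 mice per group for these data; the labels do not name the mouse of each library, and p-values measure the spread between libraries. The floor of 3 UMIs covers counting error only. Alternatives were DESeq2 1.42.0 and its size factors, no low-count filter, leaving out each library, a replicate block, mitochondrial limits of 10% and 40%, a UMI minimum of 2000, doublets kept, no alignment, resolution 2 and no thinning.

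The enzymes, the lists and the tests were chosen with earlier results of these data known. Named genes were the 9 enzymes, called genes of the lists or else the 3 with the highest CPM in enterocyte-like cells, and the 2 genes most like each enzyme. One gene of the hydrolase list that this rule names is not reported here. Genes that lead clusters and Fpr2 were named beside these.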

Additional observations from a re-analysis of the deposited data

How the results depend on the processing

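Over all epithelial cells, where 0 enzymes were called, 1 (Lvrn) was called by DESeq2 and without the low-count filter, and 0 to 1 without one library each. In TA-like cells 1 (Naaladl1) was called without the low-count filter, where 0.649% of 25425 genes were. In stem-like cells 1 (Anpep) was called without alignment, where 0.403% of 10672 genes were. The number of enzymes whose thinned shares did not overlap between the groups was 0, against 1 with a mitochondrial limit of 10%, at Leiden resolution 2 and without thinning, and 1 to 2 without one library each. With 2 libraries against 3 a lack of overlap is easier to reach. The smallest exact permutation p is then 0.2, against 0.1 with 3 against 3. This lack of overlap was not counted over all genes. The difference in the enterocyte-like share, 2.97 points, ran from 2.1 to 4.03 without one library each and was -3.18 points with a limit of 10% and 0.503 points with one of 40% mitochondrial UMIs. At the limit of 10% stem-like and tuft-like cells were too few for a fit. Of 268 fold changes of the 17 values under alternatives, 44 changed sign, and none of these was called. Where a filter, the alignment or the resolution changed, cells were clustered and named anew, and a class did not hold the same cells. The causes were not tested.

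Correlations of same-numbered deviations were -0.078, -0.045 and 0.286, the last being the highest of all pairs. Those of differently numbered libraries ran from -0.17 to 0.20. Whether the replicate numbers pair the libraries was therefore not settled. With the replicate block 0 enzymes were called, while calls over all genes went from 3 to 41 in epithelial and from 1 to 88 in enterocyte-like cells. Other counts over all genes, in the same order, were 95 and 15 by DESeq2, 191 and 94 without the low-count filter, 146 and 5 at 10% mitochondrial UMIs, 7 and 3 with doublets kept, 220 and 3 without Fpr2f/f replicate 1, and 1 to 6 and 1 to 8 without one of the other libraries. In the epithelial sum the size factors of DESeq2 gave 5, 40% mitochondrial UMIs 7 and a minimum of 2000 UMIs 2. With the block, Mep1a had 0.19 and 0.011 and Mep1b, in enterocyte-like cells, -0.0018 on the log2 scale.

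Log2 fold changes of changed sign over all epithelial cells were, at 10% mitochondrial UMIs, Mep1b -0.68, Sis -0.21 and Treh -0.26. In enterocyte-like cells they were, at 10%, Mep1b -0.25 and Dpp4 -0.015, at 40%, Mep1b -0.30, Anpep -0.24, Dpp4 -0.37 and Lct -0.015, at a minimum of 2000 UMIs, Mep1b -0.34, Anpep -0.23, Dpp4 -0.35, Lct -0.058 and Treh -0.15, without alignment, Mep1b -0.14 and Dpp4 -0.076, and at resolution 2, Mep1b -0.29, Anpep -0.087 and Dpp4 -0.24. In the Fabp6-led enterocyte-like cluster alone they were Mep1a 0.18, Mep1b -0.15, Anpep -0.025, Dpp4 -0.011, Sis -0.074, Lct -0.017 and Treh -0.070, and in the Fabp1-led cluster alone Mep1a 0.0078, Mep1b -0.21 and Dpp4 -0.08. Without one library each, values over all epithelial cells ran from -0.48 to 0.96 for Mep1a, -0.061 to 0.28 for Mep1b and -0.12 to 0.43 for Treh, and in enterocyte-like cells from -0.47 to 0.66 for Mep1a, -0.12 to 0.10 for Mep1b and -0.013 to 0.73 for Treh. Depth limits Lvrn, Treh and Lct most, which hold the fewest UMIs, and the 3 libraries per group limit each test.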
